A study of Mus musculus with 8 samples.

Results

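The genes of glycolysis and of the hypoxia response were examined in cardiomyocytes grown on a stiff or a soft surface. The set holds 36 genes, chosen by name from what is known of their function: 24 that carry glucose to lactate or control that flow, and 12 that sense low oxygen or answer to it. All 36 were found among the 29844 genes of the deposited coding table by their Ensembl ID, and all 36 had enough reads to be tested, with from 144 to 84604 reads in any one library. The cells were primary cardiomyocytes from mouse hearts at stage E18.5. All embryos were B6.Cg-Tg(HIST1H2BB/EGFP)1Pa/J animals, which carry a fluorescent histone fusion. They were plated on polydimethylsiloxane, a silicone rubber, and grown for 4 days in a medium with serum until they were confluent and beating. The stiff group (4 libraries) had a substrate of about 150 kPa and the soft group (4 libraries) one of about 10 kPa, and no other difference between the groups is labelled. The digest of whole hearts was not sorted, and the labels state neither the oxygen level of the incubator nor how many litters or cultures lie behind the libraries. P-values therefore reflect only how far these libraries spread, and that spread may be technical.

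Glycolysis splits glucose into pyruvate in the cytosol. Pyruvate then either enters mitochondria through the pyruvate dehydrogenase complex or is reduced to lactate, which leaves the cell. The fetal heart, which lives at low oxygen, depends on glycolysis more than the adult heart, which burns mostly fatty acids. When oxygen is plentiful, prolyl hydroxylases mark the alpha subunits of hypoxia-inducible factor (HIF) for destruction. When it is scarce the subunits persist, enter the nucleus and pair there with their partner Arnt. The pair binds a short core motif beside genes that include most glycolytic enzymes as well as other hypoxia targets.

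The HIF core motif is ACGTG or GCGTG, and it was searched on both strands of RefSeq promoter windows (build GRCm38.p6). Each window runs from 250 bases before to 50 bases after a listed start, which need not be the outermost start of the gene. Windows were found for 33 of the 36 genes, and 31 of the 33 had at least 1 match in any of their windows, which is 93.94% against 46.73% of 27025 genes with a window. Counted by window, 82.98% of the members' 47 windows had a match, against 43.77% of all 32851 windows. The motif contains a CG pair, and the members' windows held a median of 20 such pairs against 7 over all windows. A match is a description of the sequence, not evidence of binding. Tpi1 and Gpi1 had no match in their windows. Among members with a single window, the most matches in the 250 bases before its listed start were found for Slc16a1 and Pfkp on the glycolytic side and for Bnip3 and Ankrd37 on the hypoxia side. These stretches are shown because they let the motif be seen in genes that carry it several times: Slc16a1 (lactate transporter, 4 matches, chr3:104638414-104638663, plus strand), Pfkp (phosphofructokinase, 3 matches, chr13:6648772-6649021, minus strand), Bnip3 (mitophagy receptor, 5 matches, chr7:138909507-138909756, minus strand) and Ankrd37 (an ankyrin repeat protein, 4 matches, chr8:45999851-46000100, minus strand). The Pfkp and Ankrd37 stretches lie inside the annotated spans of their genes, chr13:6579874-6649060 and chr8:45996908-46000414, so they are not upstream of the whole gene. Capitals mark the matches, and a palindromic CACGTG counts on both strands.
Slc16a1: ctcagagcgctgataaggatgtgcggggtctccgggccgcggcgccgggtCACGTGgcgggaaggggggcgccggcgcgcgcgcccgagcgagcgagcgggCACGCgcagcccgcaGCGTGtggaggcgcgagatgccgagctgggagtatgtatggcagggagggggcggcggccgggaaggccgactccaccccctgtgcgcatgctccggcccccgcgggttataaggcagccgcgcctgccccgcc
Pfkp: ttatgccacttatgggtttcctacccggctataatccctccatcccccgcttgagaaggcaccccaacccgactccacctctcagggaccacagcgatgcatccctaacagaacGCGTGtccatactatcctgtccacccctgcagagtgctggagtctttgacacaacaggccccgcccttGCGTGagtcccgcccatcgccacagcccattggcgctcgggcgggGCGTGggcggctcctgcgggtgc
Bnip3: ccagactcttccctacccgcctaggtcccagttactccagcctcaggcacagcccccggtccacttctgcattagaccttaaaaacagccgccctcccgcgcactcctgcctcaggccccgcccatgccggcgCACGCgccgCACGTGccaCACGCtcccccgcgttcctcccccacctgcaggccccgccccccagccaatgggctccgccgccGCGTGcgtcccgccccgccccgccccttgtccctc
Ankrd37: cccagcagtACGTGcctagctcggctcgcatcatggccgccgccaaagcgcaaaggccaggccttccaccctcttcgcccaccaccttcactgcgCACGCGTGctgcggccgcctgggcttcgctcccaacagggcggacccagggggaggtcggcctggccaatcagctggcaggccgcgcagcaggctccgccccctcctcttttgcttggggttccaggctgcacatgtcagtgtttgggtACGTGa

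Before the results, the libraries themselves need a word. Coding counts ran from 27924797 to 34693673 per stiff library and from 27646471 to 30701041 per soft library. All 16 cardiomyocyte markers were detected, with summed levels of 27858 to 39055 CPM (counts of a gene relative to the total of its library, scaled between libraries) on stiff and 26300 to 47262 CPM on soft. The library soft 4 stood apart with the 47262, while the other 3 soft libraries lay between 26300 and 28407 CPM. The 14 fibroblast markers were all detected too, and summed to 8427, 9731, 13302 and 12636 CPM in stiff 1 to 4 and to 9088, 9983, 15682 and 16281 CPM in soft 1 to 4. The sums of the libraries numbered 3 and 4 were thus higher on both substrates. Abundant genes weigh most in them, such as Col1a2 with a mean of 4407 CPM. Of the 14 markers, 2, 3, 9 and 11 were above their own mean log2 CPM in stiff 1 to 4, and 4, 2, 11 and 11 in soft 1 to 4. Pdgfra went the other way, at 303, 276, 151 and 252 CPM on stiff and 290, 276, 144 and 211 CPM on soft. The markers of other cells overlapped between the substrates: endothelial markers summed to 168 to 271 CPM on stiff and 163 to 251 CPM on soft, leukocyte markers to 126 to 183 CPM on stiff and 143 to 195 CPM on soft, smooth muscle and pericyte markers to 2428 to 3599 CPM on stiff and 2629 to 4155 CPM on soft, and epicardial markers to 847 to 1083 CPM on stiff and 881 to 1344 CPM on soft. The part of any of these in the results was not tested. The 7 red cell precursor markers were listed at 0 in every library. The number is the last digit of the library code in the titles. The rest of the code differs between the stiff and the soft libraries, and what it marks is not given in the sources used here, so that anything it stands for cannot be told apart from the substrate. In bulk RNA, fewer cells of a type and less RNA per cell cannot be told apart.

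No gene of the set differed between the substrates by edgeR's quasi-likelihood test after adjustment over all 14059 coding genes tested. None of the 36 was called, against a background of 0% of coding genes, and the adjusted p was 0.99997 for each. At an unadjusted p under 0.05 there was 1 member, Slc2a4 (2.78%, background 0.925%, or 0.484% for the lower direction alone). DESeq2 and limma-voom called 0 coding genes as well, and so 0 of the 36, with Slc2a4 again the only one at an unadjusted p under 0.05. No member had stiff and soft libraries that did not overlap, against 1.29% of coding genes. Of the 36, 29 had estimates below 0, meaning a lower mean on stiff, where 51.9% of all tested genes did. The median log2 fold change, stiff over soft, was -0.14 for the members and -0.01 for all tested genes. This lean to the lower side rested largely on soft 4: without it 20 of 36 estimates were below 0, and the median was -0.05. With all libraries, 19 of the 24 glycolytic genes (median -0.12) and 10 of the 12 hypoxia genes (median -0.17) were below 0. Without soft 4, 10 of the 24 glycolytic genes (median 0.08) and 10 of the 12 hypoxia genes (median -0.11) were, beside 49.4% of all coding genes tested. Other libraries moved the hypoxia genes more: their median was -0.35 without soft 1, -0.27 without stiff 3 and -0.10 without soft 3, and their count below 0 ran from 8 (without soft 2 or soft 3) to 12 (without stiff 2). The difference between the gene groups was not tested. A member's 95% interval extended 1.39-fold above and below the estimate in the median, and for 31 of the 36 it lay wholly within 2-fold in either direction. A change of 2-fold was therefore outside the unadjusted interval for these 31, while changes of the size of the estimates were within the error of this fit. In an edgeR fit that also took in the library number, 2.56% of coding genes had an unadjusted p under 0.05, against 0.925% here. Both shares are below what a threshold of 0.05 would give with no differences at all, so the intervals may be too wide.

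**Figure D1:**
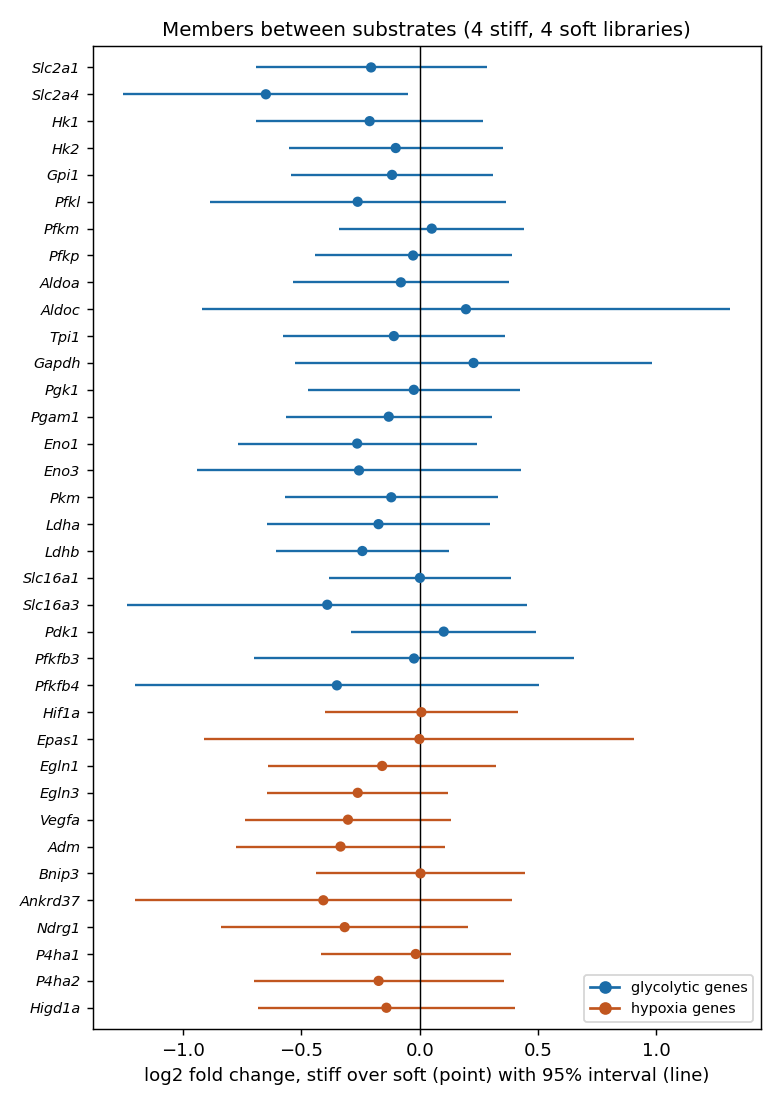
Log2 fold change of each member, stiff over soft (point), with its unadjusted 95% interval (line) from the fit on 4 stiff and 4 soft libraries; glycolytic genes are blue and hypoxia genes orange. Of the 36 points 29 lie left of 0, and the interval of Slc2a4 alone leaves out 0.

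The set holds 2 glucose transporters. A further one, Slc2a3, looked up after its values were seen, averaged 70.8 ± 34.6 CPM on stiff and 74.7 ± 29.6 CPM on soft. Slc2a4 encodes the insulin-responsive transporter of heart, muscle and fat. It stood at 29.3, 15.9, 19.9 and 32.4 CPM in stiff 1 to 4 and at 43.4, 27.4, 28.7 and 53.6 CPM in soft 1 to 4. Each stiff library was below the soft library of the same number, but the groups overlapped: stiff 1 and stiff 4 exceeded soft 2 and soft 3. Slc2a4 averaged 24.4 ± 7.74 CPM on stiff and 38.3 ± 12.5 CPM on soft (SD, n = 4 each), a log2 fold change of -0.65 (SE 0.28, 95% interval -1.25 to -0.05). Its unadjusted p by edgeR was 0.0359. Blocking on the number as the replicate gave an unadjusted p by edgeR of 0.00518, with an adjusted p of 1.00 under the block. Without soft 4 the log2 fold change was -0.44 and the unadjusted p by edgeR 0.146. It also exceeded 0.05 without stiff 2, stiff 3 or soft 1. Slc2a1, the transporter for basal uptake that dominates in fetal tissue, stood at 265, 206, 324 and 199.6 CPM on stiff and at 179.6, 246, 343 and 378 CPM on soft. Its lowest value as well as its highest belonged to soft libraries, soft 1 and soft 4, and its log2 fold change was -0.21 (SE 0.23), or -0.036 without soft 4 and -0.38 without soft 1.

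The 15 enzymes from hexokinase to pyruvate kinase gave 12 estimates below 0 and 3 above. Their log2 fold changes ran from -0.26 to 0.23 around a median of -0.11. Pkm, pyruvate kinase of muscle and fetal tissue, stood at 1892, 1597, 2092 and 1554 CPM on stiff and at 1519, 1474, 1971 and 2792 CPM on soft. Its mean was 1784 ± 254 CPM on stiff and 1939 ± 611 CPM on soft, and the high soft mean came from soft 4. Aldoa, the muscle aldolase, followed with 2141, 1789, 1729 and 1168 CPM on stiff and 1544, 1414, 1824 and 2432 CPM on soft. Here stiff 4 was the lowest library and soft 4 the highest, and the log2 fold change was -0.08 (SE 0.22). Hk1, the hexokinase found in most tissues, had 156, 126, 171 and 175 CPM on stiff against 135, 132, 179.7 and 281 CPM on soft. Pfkl, the liver form of phosphofructokinase, had 199, 177, 279 and 209 CPM on stiff against 182, 143, 279 and 433 CPM on soft. Both had their highest value in soft 4, and without that library both estimates turned positive, to 0.09 for Hk1 and 0.11 for Pfkl, where they had been -0.21 (SE 0.23) and -0.26 (SE 0.29).

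Eno1, the enolase of most tissues, was at 253, 240.1, 362 and 201 CPM on stiff and at 222, 230.2, 422 and 394 CPM on soft, a log2 fold change of -0.26 (SE 0.24). Leaving out stiff 3 made it -0.46, and leaving out soft 3 made it -0.096. Its near-identical relative Eno1b, looked up after the values were seen, averaged 87.8 ± 19.3 CPM on stiff and 100.4 ± 42.1 CPM on soft, with a log2 fold change of -0.19 (SE 0.27). How reads shared by such copies were counted is not given in the sources used here, so the split between them is uncertain. The same holds for Pgk1, phosphoglycerate kinase, which averaged 398 ± 107 CPM on stiff and 405 ± 76.9 CPM on soft, beside 27.7 ± 7.58 CPM on stiff and 30.8 ± 15.7 CPM on soft for its relative Pgk1-rs7. Gapdh, which has many processed copies in the mouse genome, was read at only 52.3 ± 25.5 CPM on stiff and 44.7 ± 15.8 CPM on soft. How reads shared with those copies entered its counts is not known here. Gapdh ranged from 21.9 CPM in stiff 4 to 81.2 CPM in stiff 3, wider than the difference between the substrates.

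The other enzymes varied in the same range. Hk2, the insulin-regulated hexokinase of muscle, averaged 288 ± 51.6 CPM on stiff and 308 ± 100.1 CPM on soft. Gpi1, which makes fructose phosphate from glucose phosphate, averaged 509 ± 135 CPM on stiff and 552 ± 76.1 CPM on soft, and triose phosphate isomerase (Tpi1) 965 ± 134 CPM on stiff and 1041 ± 362 CPM on soft. Of the other phosphofructokinases, the muscle form Pfkm stood at 135 ± 27.5 CPM on stiff and 129.9 ± 17.6 CPM on soft, and the platelet form Pfkp at 644 ± 79.2 CPM on stiff and 657 ± 169.9 CPM on soft. Phosphoglycerate mutase (Pgam1) averaged 109.7 ± 23.8 CPM on stiff and 120.2 ± 26.5 CPM on soft. Eno3, the enolase of striated muscle, had 195 CPM in its highest stiff library and 358 CPM in soft 4, with 104 to 167 CPM in the other soft libraries. Aldoc, the aldolase best known from brain, went the other way: it was lowest in the libraries numbered 4, at 10.8 CPM in stiff 4 and 24.4 CPM in soft 4, against 56.2 to 79.8 CPM in the other stiff and 53.3 to 56.5 CPM in the other soft libraries.

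Lactate is made and exported by the next group. Ldha, the lactate dehydrogenase subunit that favours lactate production, stood at 1083, 1213, 1435 and 1105 CPM on stiff and at 937, 1018, 1546 and 1954 CPM on soft. Soft 1 and soft 2 were below all 4 stiff libraries and soft 3 and soft 4 above them, so that the mean difference, a log2 fold change of -0.17 (SE 0.22), hides a spread in both directions. Ldhb, the subunit that prevails in adult heart, was at 114, 108, 111 and 106 CPM on stiff, within a narrow band, and at 139.5, 115, 104 and 160.4 CPM on soft, a log2 fold change of -0.24 (SE 0.17). Slc16a3, the lactate exporter of glycolytic cells, was at 164, 136, 306 and 191 CPM on stiff and at 143, 152, 273 and 476 CPM on soft. Its log2 fold change was -0.39 (SE 0.38) and became 0.08 without soft 4. Slc16a1, which carries lactate and pyruvate in either direction, averaged 287 ± 48.5 CPM on stiff and 287 ± 51.3 CPM on soft, and the 95% interval of its log2 fold change ran from -0.38 to 0.38. Pdk1, the kinase that shuts off pyruvate dehydrogenase in hypoxia, was at 532, 631, 568 and 387 CPM on stiff and at 441, 591, 437 and 507 CPM on soft, a log2 fold change of 0.10 (SE 0.19) that ran from 0.0083 without stiff 2 to 0.23 without stiff 4.

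The bifunctional enzymes of the Pfkfb family set the level of the strongest activator of phosphofructokinase. Pfkfb3, the form with the highest kinase activity, was at 119.7, 104, 125 and 50.6 CPM on stiff and at 66.4, 123, 149.9 and 67.5 CPM on soft. Stiff 4, soft 1 and soft 4 were low and the other 5 libraries high, without regard to the substrate. Pfkfb4 was at 7.72, 6.02, 4.32 and 8.64 CPM on stiff and at 9.78, 5.24, 7.08 and 11.9 CPM on soft, a log2 fold change of -0.35 (SE 0.40) that was -0.14 without soft 4 and -0.52 without soft 2.

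**Figure D2:**
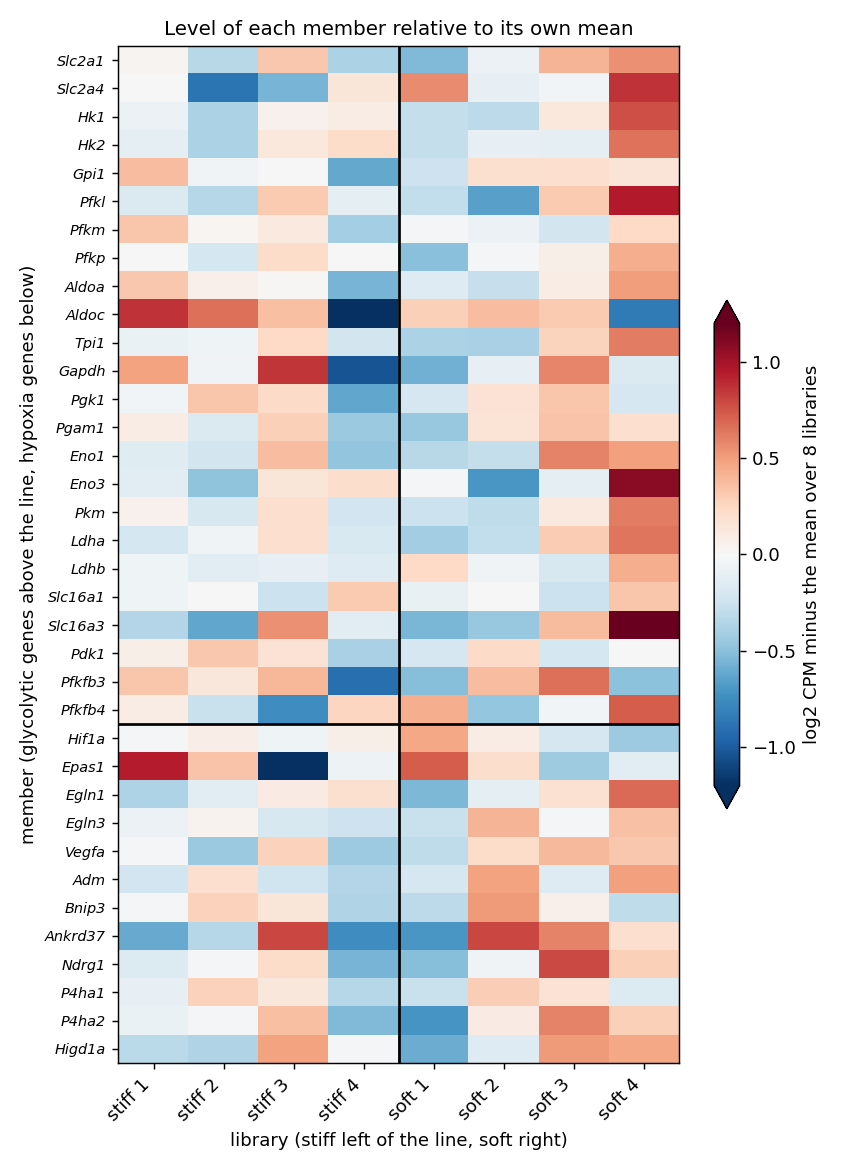
Level of each of the 36 members in each library as log2 CPM minus the member's mean over the 8 libraries (colour, saturated at 1.2 to either side), with stiff libraries left and soft libraries right of the vertical line. Soft 4 held the highest value of 15 of the 24 glycolytic genes above the horizontal line, and stiff 4 the lowest value of 9 of them.

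The sensors and the transcription factor come next. Hif1a, the alpha subunit present in most cells, was at 802, 857, 782 and 848 CPM on stiff and at 1115, 858, 702 and 599 CPM on soft. The stiff libraries lay close together, and soft 1 lay above them and soft 3 and soft 4 below, with a mean of 822 ± 36.3 CPM on stiff and 818 ± 224 CPM on soft. Soft 4, the lowest for Hif1a RNA, was the highest for most glycolytic genes. Epas1, the alpha subunit best known from endothelium, was at 30.7, 20.3, 5.22 and 15.3 CPM on stiff and at 26.4, 18.503, 11.9 and 14.7 CPM on soft. It was lowest in stiff 3. There the summed endothelial markers were also the lowest of the stiff libraries, at 168 CPM against 196 to 271 CPM. The lowest sum of all 8 libraries was 163 CPM in soft 3, where Epas1 stood at 11.9 CPM. Cdh5, Kdr, Tie1, Sox17, Egfl7 and Npr3 were not at their lowest stiff value in stiff 3. Cldn5, 1 of the 13 markers, was listed at 0 in every library. The part of these markers in the Epas1 value was not tested. Egln1, the main prolyl hydroxylase, was at 159, 188, 220.3 and 235 CPM on stiff and at 142, 190.3, 233 and 329.7 CPM on soft, a log2 fold change of -0.16 (SE 0.23). Egln3, a hydroxylase that HIF itself induces, was at 191, 206, 176 and 169 CPM on stiff and at 167, 267, 198 and 257 CPM on soft. Its lowest library was soft 1 although the mean was lower on stiff, at 185 ± 16.7 CPM against 222 ± 47.9 CPM on soft (log2 fold change -0.26, SE 0.18).

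The other 8 hypoxia targets gave 7 estimates below 0 and 0 calls, and their median log2 fold change was -0.24. Vegfa, the main angiogenic growth factor, was at 738, 551, 909 and 553 CPM on stiff and at 607, 871, 980.4 and 935 CPM on soft. Of the soft libraries 3 were high and soft 1 was low, and the log2 fold change was -0.30 (SE 0.21). Its unadjusted p by edgeR was 0.161, and under the replicate block it was 0.0438 with an adjusted p of 1.00. Adm, which encodes the vasodilator peptide adrenomedullin, was at 64.9, 87.1, 64.3 and 59.3 CPM on stiff and at 65.9, 106, 68.3 and 107 CPM on soft. Like Slc2a4, it was lower in each stiff library than in the soft library of the same number, by a log2 fold change of -0.33 (SE 0.21). These were the only 2 of 36 members (5.56%) that were lower on stiff at all 4 numbers, a share close to the 5.68% of all tested coding genes. Ndrg1, a stress-induced gene of cell differentiation, was at 132, 146, 172 and 101 CPM on stiff and at 104, 144, 258 and 181 CPM on soft. P4ha1, the catalytic subunit of collagen prolyl hydroxylase, was at 899, 1162, 1056 and 757 CPM on stiff and at 800.2, 1177, 1085 and 857 CPM on soft. In P4ha1 the libraries numbered 2 and 3 were the higher ones on both substrates, and its log2 fold change was -0.02 (SE 0.19).

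Ankrd37, whose sequence with 4 core motifs is shown above, had the widest swing of these targets, from 12.6 CPM in stiff 4 to 36.6 CPM in stiff 3 on stiff and from 12.9 CPM in soft 1 to 36.7 CPM in soft 2 on soft. Its log2 fold change was -0.41 (SE 0.37) with all libraries and -0.88 without stiff 3, which edgeR gave an unadjusted p of 0.0195 but no call. Bnip3, which marks mitochondria for removal, averaged 710.1 ± 128 CPM on stiff and 708 ± 204 CPM on soft. P4ha2, the other collagen hydroxylase subunit of the set, averaged 183 ± 45.4 CPM on stiff and 207 ± 70.3 CPM on soft. Higd1a, a mitochondrial inner membrane protein induced by hypoxia, averaged 68.0 ± 19.7 CPM on stiff and 74.9 ± 25.5 CPM on soft.

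**Figure D3:**
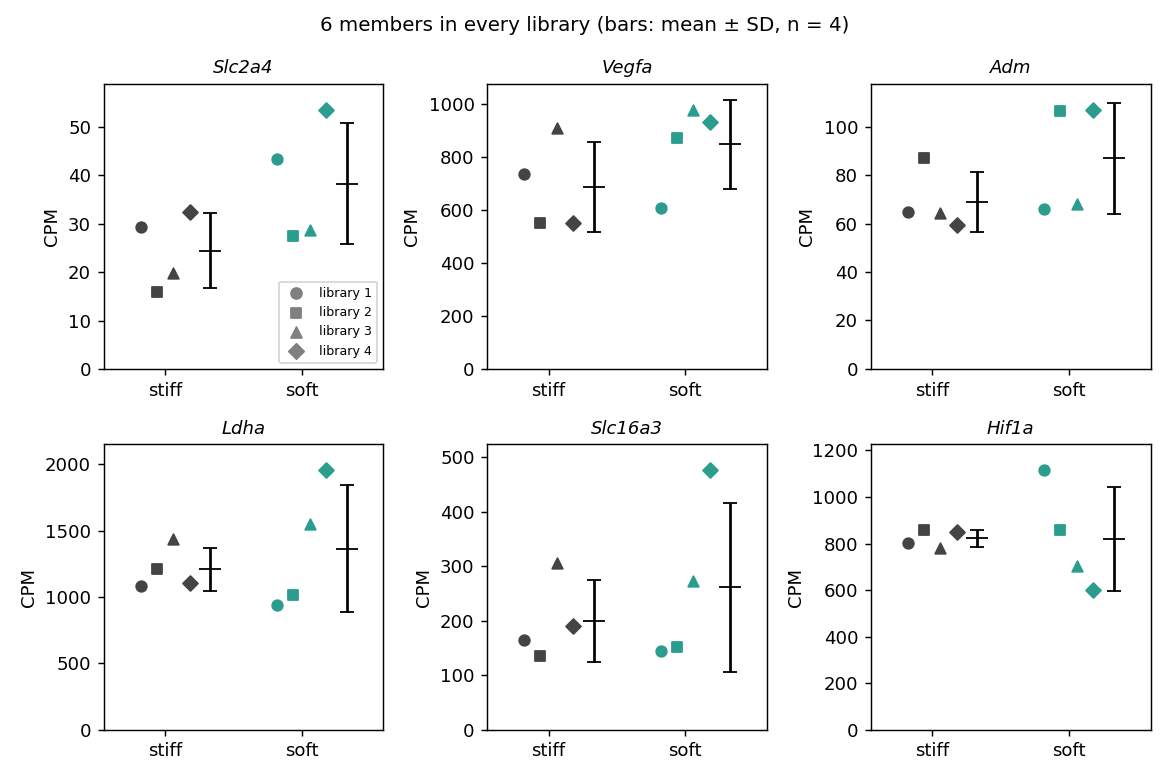
CPM of 6 members in every library, stiff left and soft right; the marker shape gives the library number and the bar the mean ± SD of 4 libraries. The groups overlap in each panel, and soft 4 is the highest library for Slc2a4, Adm, Ldha and Slc16a3 and the lowest for Hif1a.

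Libraries of the same number deviated together to a small degree across the whole table, so each stiff library was also set against the soft library of its number. At number 4, all 24 glycolytic genes were lower on stiff, with a median log2 ratio of -0.74. At number 1 the order was turned round, with 20 of 24 higher on stiff and a median of 0.24. At numbers 2 and 3 they split, with 11 and 13 of 24 lower on stiff. The 12 hypoxia genes were lower on stiff in 10 at number 4 (median -0.55), 9 at number 3 and 10 at number 2 (median -0.16), and in 2 at number 1 (median 0.20). Over all tested coding genes with counts in both libraries, 49.9% to 50.9% were lower on stiff at each number. The sum of cardiomyocyte markers at number 4 was 39055 CPM in stiff 4 and 47262 CPM in soft 4. At number 1 it was 32981 CPM in stiff 1 and 28407 CPM in soft 1. Of these markers, Ttn, Ryr2 and Pln were higher in stiff 4 than in soft 4. Tnni1, Mybpc3, Myl2 and Pln were among those lower in stiff 1 than in soft 1. The fibroblast, smooth muscle and pericyte, endothelial, leukocyte and epicardial sums were lower in stiff 4 than in soft 4 too. At number 1 the fibroblast, leukocyte and epicardial sums were lower in stiff 1. The endothelial and the smooth muscle and pericyte sums were higher there. The part of any of these markers in either pattern was not tested.

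**Figure D4:**
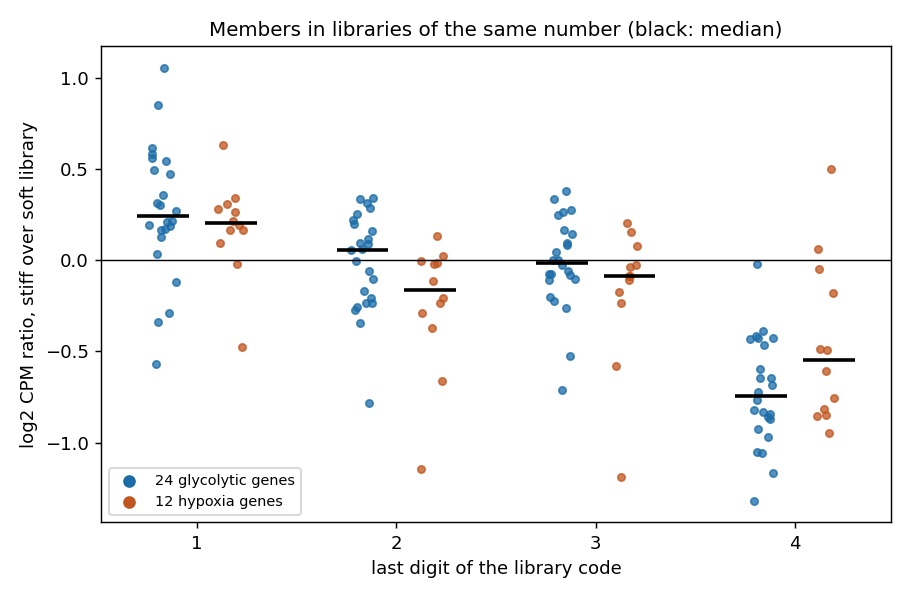
Log2 ratio of CPM, stiff over soft, between libraries that share the last digit of their code, 1 point per member (blue, 24 glycolytic genes; orange, 12 hypoxia genes) with the median as a black bar. The glycolytic median is 0.24 at number 1 and -0.74 at number 4, and lies near 0 at numbers 2 and 3.

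The spread within a substrate also bears on these values. The median SD of log2 CPM over the 36 members was 0.32 on stiff and 0.47 on soft, while over all tested coding genes it was 0.38 on stiff and 0.39 on soft. Without soft 4 the soft value was 0.37 for the members and 0.32 for all tested coding genes. Soft 4 held the highest level of 17 of the 36 members (47.2%) and of 19.5% of all tested genes, and stiff 4 the lowest level of 14 members (38.9%) and of 12.02% of all tested genes.

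Ratios between related genes within a library do not depend on the scaling of libraries, and 12 pairs were compared between the substrates by a two-sided exact permutation test, which cannot go below p = 0.0286 with 4 against 4. None passed. The exact p ran from 0.343 to 0.943, and after adjustment over the 12 pairs it was 0.943 for each. The largest difference was in Slc2a4 over Slc2a1, whose log2 count ratio was -3.38 ± 0.61 on stiff and -2.90 ± 0.65 on soft (SD, n = 4 each). Hk2 over Hk1 had the smallest SD of the 12 pairs, with 0.87 ± 0.08 on stiff and 0.79 ± 0.20 on soft. Ldhb over Ldha stood at -3.45 ± 0.19 on stiff and -3.35 ± 0.51 on soft, and Epas1 over Hif1a at -5.78 ± 1.06 on stiff and -5.54 ± 0.24 on soft. These ratios of counts are not ratios of molecules, since gene length enters them, and only their difference between substrates is read here.

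In some pairs the libraries sorted by number and not by substrate. Pfkl over Pfkm was at 0.27 and 0.42 in stiff 1 and 2 and at 0.51 and 0.19 in soft 1 and 2, but at 0.97 and 1.08 in stiff 3 and 4 and at 1.31 and 1.49 in soft 3 and 4. Egln3 over Egln1 was above 0 in the libraries numbered 1 and 2, at 0.26 and 0.13 on stiff and 0.23 and 0.49 on soft. It was below 0 in those numbered 3 and 4, at -0.33 and -0.48 on stiff and -0.24 and -0.36 on soft. The fibroblast marker sums given above divide the 8 libraries in the same way, while the fibroblast marker Pdgfra divides them in the opposite direction. The part of these markers in the ratios was not tested.

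Genes beside the set were read from 2 wider lists of the same pathways. Of 48 further genes of glucose metabolism, 45 were tested, with 24 estimates above 0 and 21 below (median 0.02). By edgeR there were 0 calls and 0 genes at an unadjusted p under 0.05, also under the replicate block. With 1 library left out, that p fell under 0.05 for Gpd1l (without soft 1), Pgm2l1 (without soft 2 or stiff 1) and Minpp1 (without stiff 4). None was called, and 1.16% to 1.9% of all coding genes were under 0.05 in those fits. Hkdc1 and Pklr, isozymes of other tissues, had too few reads. The smallest p-values of this list belonged to Gpd1l, a glycerol phosphate dehydrogenase relative, at 35.3 ± 5.60 CPM on stiff and 26.2 ± 5.36 CPM on soft (log2 fold change 0.43, SE 0.23), and to Pgm2l1, which makes a glucose bisphosphate, at 22.3 ± 7.26 CPM on stiff and 15.2 ± 4.58 CPM on soft (log2 fold change 0.55, SE 0.31). Minpp1, an inositol phosphate phosphatase, showed a log2 fold change of -0.33 (SE 0.22), and Tkt, transketolase of the pentose phosphate pathway, one of -0.28 (SE 0.19). Of the most abundant, Bsg, the chaperone of lactate transporters, averaged 1275 ± 571 CPM on stiff and 1199 ± 238 CPM on soft. Txnip, which restrains glucose uptake, averaged 676 ± 303 CPM on stiff and 625 ± 139.5 CPM on soft, and the pyruvate dehydrogenase subunit Pdha1 513 ± 83.1 CPM on stiff and 473 ± 57.9 CPM on soft.

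Of 57 further hypoxia response genes, 56 were tested, with 19 estimates above 0 and 37 below, a median of -0.05 and 0 calls. Trf, which encodes the iron carrier transferrin, was the 1 gene of the list at an unadjusted p under 0.05 without a block. Trf and Plod1 were the 2 under the replicate block. Over all coding genes tested by edgeR, 0.925% were under 0.05 without the block and 2.56% with it. For Trf the unadjusted p by edgeR was under 0.05 when soft 1, soft 4 or stiff 4 was left out. It exceeded 0.05 when any of the other 5 libraries was left out. Its unadjusted p by edgeR was 0.0299 (adjusted p 0.99997), and 0.0119 under the block (adjusted p 1.00). It stood at 91.7, 93.5, 89.3 and 54.4 CPM on stiff and 66.0, 43.3, 58.9 and 64.2 CPM on soft. All stiff libraries but stiff 4 lay above all soft libraries. Plod1, a collagen lysyl hydroxylase, had a log2 fold change of -0.38 (SE 0.22), which was -0.079 without soft 4. Its unadjusted p by edgeR was 0.108, and 0.0480 under the block (adjusted p 1.00). Plin2, a lipid droplet coat protein, had -0.29 (SE 0.20), which was -0.088 without soft 4, and the receptor gene Gpr146 -0.28 (SE 0.20). The matrix crosslinker Lox averaged 1776 ± 463 CPM on stiff and 1566 ± 456 CPM on soft, and P4hb, the partner of the P4ha subunits, 1141 ± 161 CPM on stiff and 1188 ± 288 CPM on soft.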

How the data were processed

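RNA sequencing measured 8 libraries, grouped by the substrate label. The authors deposited raw counts of reads for every gene in each library. Per the submitters' processing notes, which give no roles, the tools were HTSeq 0.6.1, edgeR, DESeq2, Cufflinks, TopHat, TopHat2 2.0.14, Bowtie2 and FastQC 0.11.2, and the build was GRCm38. How strand was handled is not given in the sources used here. Symbols came from the Ensembl IDs. The noncoding table was not used here.

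Analysis used edgeR 4.0.16 (R 4.3.3): filterByExpr (minimum count 10, minimum total 15), TMM scaling, the robust quasi-likelihood test, substrate being the only term, and Benjamini-Hochberg adjustment over 14059 genes, with a call under 0.05. Levels are TMM-scaled CPM. DESeq2 1.42.0 and limma-voom (limma 3.58.1), other scalings and filters, a block and each library left out in turn were the alternatives. Ratios used log2 counts with 0.5 added and exact permutation in scipy 1.17.1. The fit was run on simulated counts with planted changes, only to check that it works. These counts were drawn without an effect shared by library number, so they do not show which changes could be called in these libraries. No 2 libraries agreed within sampling noise (chi-square per degree of freedom from 45.9 to 232.9).

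The replicate number is the last digit of the library code. Deviations from the substrate mean correlated at 0.104, 0.181, 0.128 and 0.305 across genes within numbers 1 to 4, and from -0.228 to 0.130 between different numbers. Stiff 1 correlated more with soft 2 (0.130) than with soft 1, so by this measure the pairing is weak there. By chi-square per degree of freedom, the library closest to stiff 1 was soft 1 (47.4), to stiff 2 soft 2 (45.9) and to stiff 3 soft 3 (56.0). Stiff 4 was closer to soft 3 (109) than to soft 4 (118.1). With every same-number correlation over 0.1 the number was used as a block in alternative fits, and blocked values are given where they change a count. The labels do not say what the digit marks.

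The members and lists were chosen with earlier results of these data known. All 36 members are named. Every library is given for the 3 members of smallest p and the 2 of highest level in each role group. In the 2 wider lists the 4 genes of smallest p and the 3 of highest level are named, except for an item that is not reported here. Slc2a3, Igfbp3, Ankrd37, Eno3, Aldoc, Gapdh, Eno1b and Pgk1-rs7 are described further after their values were seen. No molecular identifiers are named, so reads are not independent molecules.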

Additional observations from a re-analysis of the deposited data

Results flagged for a closer look

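Among 144 groups of 4 libraries examined, 9 had 1 library far from the other 3 by Dixon's criterion, where chance alone gives about 1 in 20. On stiff, Ankrd37 had its highest value, 36.6 CPM, in stiff 3, with the next at 16.6 CPM. Lox had its highest, 2467 CPM, in stiff 2, with the next at 1615 CPM. Trf had its lowest, 54.4 CPM, in stiff 4, with the next at 89.3 CPM, and the log2 ratio of Aldoc to Aldoa was lowest there too, at -6.75, with the next at -4.94. On soft, Hk2 had its highest value, 457 CPM, in soft 4, with the next at 271 CPM, and Aldoc its lowest there, 24.4 CPM, with the next at 53.3 CPM. The summed cardiomyocyte markers were highest in soft 4 as well, at 47262 CPM, with the next at 28407 CPM. Gpi1 had its lowest value, 438 CPM, in soft 1, with the next at 578 CPM, and so did Minpp1, at 39.2 CPM, with the next at 45.4 CPM.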

How the results depend on the processing

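No member was called under any of the 17 alternatives, whose lowest adjusted p for a member was 0.999619. With the replicate block in edgeR, 360 coding genes had an unadjusted p under 0.05 where 130 did without it, and 2 members where 1 did. limma-voom with the replicate block, chosen after seeing the data, gave 3 members at an unadjusted p under 0.05 (Slc2a4, Vegfa and Slc16a3). These were 8.33% of the members, against 432 coding genes (3.07%) in the same fit. That fit also gave 2 of 45 genes of the further glucose list (Pgm2l1 and Tkt) and 3 of 56 of the further hypoxia list (Trf, Plod1 and Igfbp3). It called 2 coding genes higher and 6 lower on stiff, none of them a member. The block changed no other call. DESeq2 gave 322 coding genes at an unadjusted p under 0.05, no filter 473, limma-voom 181, and edgeR without 1 library 122 to 272. Signs turned under other settings for 5 genes: Pfkp to 0.0017 (limma-voom) and 0.0011 (block), Aldoc to -0.094 (limma-voom) and -0.043 (block), Bsg to -0.032 (limma-voom), -0.029 (block) and -0.011 (both), Slc16a1 to -0.0050 (upper quartile), and Epas1 to 0.0054 (RLE scaling), 0.0046 (no filter) and 0.0059 (DESeq2). Leaving out 1 library turned the sign of 24 of the 36 members, 15 of them without soft 4, and 12 kept their sign throughout. The count of glycolytic genes below 0 ran from 10 to 21. The ranges of the log2 fold changes that turned sign were -0.34 to 0.086 for Hk1, -0.21 to 0.16 for Hk2, -0.28 to 0.033 for Gpi1, -0.46 to 0.11 for Pfkl, -0.062 to 0.17 for Pfkm, -0.17 to 0.14 for Pfkp, -0.21 to 0.11 for Aldoa, -0.056 to 0.54 for Aldoc, -0.24 to 0.12 for Tpi1, -0.068 to 0.49 for Gapdh, -0.14 to 0.14 for Pgk1, -0.47 to 0.22 for Eno3, -0.23 to 0.12 for Pkm, -0.32 to 0.058 for Ldha, -0.12 to 0.13 for Slc16a1, -0.67 to 0.079 for Slc16a3, -0.18 to 0.22 for Pfkfb3, -0.11 to 0.19 for Hif1a, -0.39 to 0.30 for Epas1, -0.33 to 0.096 for Egln1, -0.096 to 0.21 for Bnip3, -0.11 to 0.088 for P4ha1, -0.37 to 0.014 for P4ha2, -0.35 to 0.012 for Higd1a, -0.13 to 0.34 for Bsg, -0.15 to 0.35 for Txnip, -0.015 to 0.39 for Lox and -0.16 to 0.080 for P4hb. Other log2 fold changes kept their sign but moved by over 1.5 times: -0.28 to -0.017 for Pgam1, -0.34 to -0.12 for Ldhb, -0.38 to -0.16 for Egln3, -0.47 to -0.21 for Vegfa, -0.47 to -0.21 for Adm, -0.88 to -0.20 for Ankrd37, -0.50 to -0.054 for Ndrg1, -0.52 to -0.25 for Minpp1, -0.39 to -0.13 for Tkt and 0.023 to 0.20 for Pdha1. The ranges of the log2 count ratios, stiff minus soft, were -0.20 to 0.073 for Pfkp over Pfkm, -0.42 to 0.016 for Pfkl over Pfkm, -0.43 to 0.51 for Aldoc over Aldoa, -0.11 to 0.32 for Eno3 over Eno1, -0.29 to 0.095 for Ldhb over Ldha, -0.75 to 0.037 for Pfkfb4 over Pfkfb3, -0.60 to 0.24 for Epas1 over Hif1a, -0.26 to 0.019 for Egln3 over Egln1 and -0.28 to 0.016 for P4ha2 over P4ha1. Their causes were not tested.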
